A study of Mus musculus with 4 samples.

Results

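The epidermal growth factor (EGF) family was followed here through 7 genes, named by symbol. They were the ligand genes Areg, Ereg, Hbegf, Btc, Tgfa and Epgn and the receptor gene Egfr, out of 24421 gene symbols in the count files. All 7 were listed, and 5 of them passed the filter on low counts and were tested. Ereg and Epgn did not pass and are given by their counts. The libraries came from regulatory T cells (Tregs) of omental tumors and of the spleen, with 2 libraries per tissue, from mouse 2 and mouse 3 in both. CD45.1+ mice received EG7.1.15 cells, grown under G418 selection, in the peritoneal cavity. Each was joined surgically to a tumor-free CD45.1- partner, and tissues were taken from the tumor bearer at day 14. The sorted cells had come from the partner, per the labels. They were of the strain B6 Foxp3-DTR/GFP in both tissues. Live cells positive for CD45.2, CD4, CD25 and the Foxp3-GFP reporter and negative for CD45.1 and B220 were sorted. The sources used here give no ages. Nothing in the labels says that other animals were pooled.

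EGF family ligands are made as membrane-bound precursors that proteases such as ADAM17 cut loose from the cell surface. They bind EGFR or its relatives of the ERBB family on nearby epithelial, stromal or immune cells and start the RAS and MAP kinase cascade. Amphiregulin, the product of Areg, is the ligand best known in Tregs, where it supports tissue repair apart from suppression. Heparin-binding EGF (Hbegf), transforming growth factor alpha (Tgfa), betacellulin (Btc), epiregulin (Ereg) and epigen (Epgn) are more typical of epithelial and myeloid cells.

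Libraries held between 3764508 and 13598631 counts in genes, both omental tumor libraries below both spleen libraries. Foxp3, the lineage factor of Tregs, stood at 93.1 and 88.5 CPM (counts per 1000000 gene counts of the library) in omental tumor and at 116 and 116 CPM in spleen. The other genes of the sort were present as well, with Cd4 at 430 and 120 against 581 and 810 CPM, Il2ra (CD25) at 789 and 335 against 716 and 712 CPM, and Ptprc (CD45) at 2376 and 971 against 2656 and 3242 CPM. Of the 7 genes on the sort marker list, 0 were called by edgeR, DESeq2 or limma-voom, with 0 unadjusted p under 0.05 in edgeR. The T cell marker list, of which 9 of 12 genes were in the files, summed to 4262 and 4346 CPM in omental tumor and to 5920 and 7488 CPM in spleen. In edgeR 0 of these 9 were called and 0 had a positive log2 fold change, with a median of -1.37. Markers of other cells were also found, those of neutrophils mostly in the mouse 3 omental tumor library. In such bulk samples, fewer cells of a type and less RNA per cell cannot be told apart. Over all 16322 genes tested, 190 were higher and 43 lower in omental tumor. With upper-quartile factors the split was 210 against 13, and with library gene totals alone 26 against 2. The median log2 fold change of all genes was 0.13 with the trimmed-mean (TMM) scaling used throughout, 0.25 with RLE factors, 0.62 with upper-quartile factors and 0.39 with library gene totals alone. Fold changes below are not corrected for these shifts.

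Areg was the single member that differed between the tissues past the threshold. It reached 87.4 and 647 CPM in the omental tumors of mouse 2 and mouse 3, against 2.50 and 1.03 CPM in their spleens. These levels rest on 582 and 2434 counts in omental tumor and on 25 and 14 counts in spleen. The tissues did not overlap, and the omental tumor libraries themselves lay far apart. The mean was 367 ± 395 CPM for omental tumor, against 1.77 ± 1.04 CPM for spleen (SD, n = 2 each). The log2 fold change was 7.53 (SE 1.02) with an adjusted p of 4.67e-10 in edgeR's quasi-likelihood test, rank 7 of all genes by p. Areg was 1 call among the 7 members and 5 tested, and calls made up 1.43% of all genes tested, 1.16% higher and 0.263% lower in omental tumor. It was also the 1 member with an unadjusted p under 0.05, against 10.2% of all genes in either direction and 4.97% in the higher direction. Within mouse 2 the ratio of omental tumor to spleen was 34.9 (95% interval 23.4 to 54.4), and within mouse 3 it was 628 (374 to 1150.5). These intervals cover counting error only, since reads amplified by PCR are not independent molecules. The intervals of the mice do not overlap. Areg passed the filter on low counts through its omental tumor libraries.

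**Figure D1:**
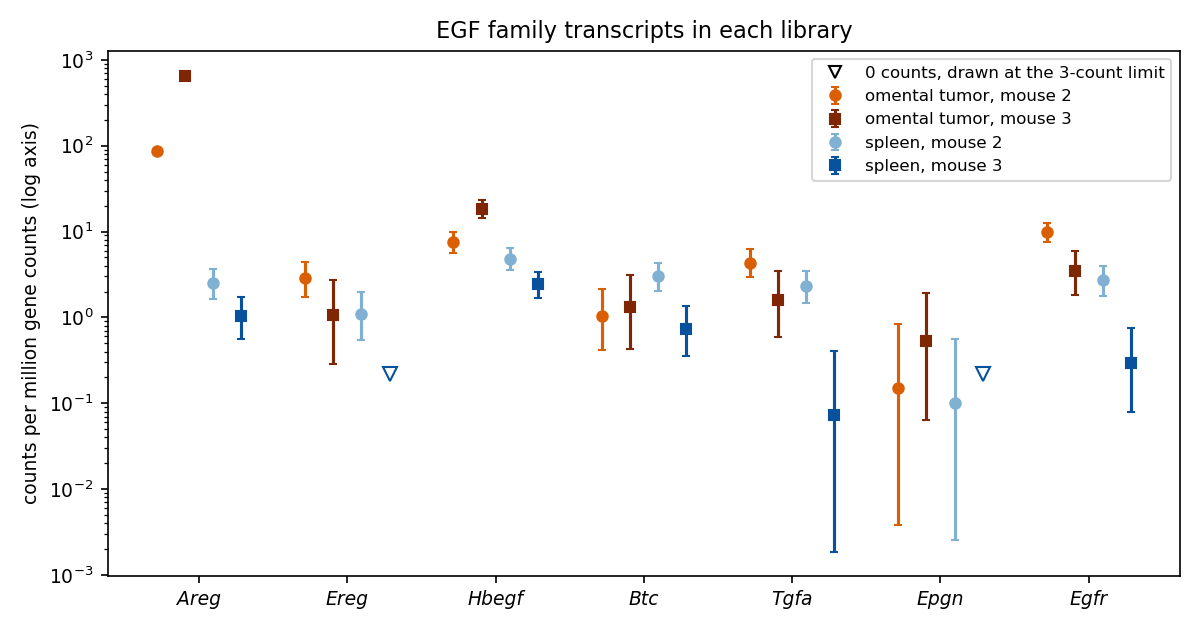
Level of each member in each library, in CPM on a log axis, with 95% Poisson intervals that cover counting error only. Areg stands at 87.4 and 647 CPM in omental tumor and at 2.50 and 1.03 CPM in spleen, and no other member exceeds 18.3 CPM. Open triangles mark 0 counts and are drawn at the level of 3 counts.

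The call for Areg held without any single library, with an adjusted p of at most 0.0146. The log2 fold change was 8.36 without the mouse 2 omental tumor library and 5.27 without the one from mouse 3. It was 8.005 without the mouse 2 spleen library and 7.61 without its mouse 3 counterpart. With the mouse as a replicate block it was 6.89 (adjusted p = 0.000259), and 1.61% of all genes were called. The call was lost when the filter on low counts was dropped (adjusted p = 0.204) or raised to a minimum count of 50 (adjusted p = 0.0860), settings in which 0 genes passed. In those fits 1903 and 1143 genes had an unadjusted p under 0.05, whereas DESeq2 and limma-voom called 370 and 163 genes, Areg included.

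Some markers of myeloid cells moved with Areg across the 4 libraries and others did not. Beside the marker counts below, edgeR called 1.16% of all genes tested higher and 0.263% lower, and 53.9% had positive log2 fold changes. The neutrophil list (12 of 13 markers in the files, 9 tested, 4 higher and 0 lower in edgeR, 3 higher in DESeq2 and 1 in limma-voom) summed to 188 and 1542 CPM in omental tumor and to 106 and 62.4 CPM in spleen, with 8 of 9 log2 fold changes positive and a median of 2.43. S100a9, a calgranulin of neutrophils, stood at 1.80 and 499 CPM in omental tumor and at 9.31 and 6.03 CPM in spleen, and S100a8, its partner, at 0.15 and 432 against 6.41 and 7.65 CPM. Without the mouse 3 omental tumor library, S100a9 and S100a8 had log2 fold changes of -2.47 and -5.86 and 0 of the 4 calls were left, with adjusted p from 0.646 to 0.817. The 4 were also lost without either spleen library and with the replicate block, with adjusted p from 0.0655 to 0.845. Elane, the neutrophil elastase gene, was at 0 in all 4 libraries. Csf3r, of the same list, stood at 32.0 and 290 CPM in omental tumor and at 22.3 and 3.90 CPM in spleen. Cxcr2 stood at 78.4 and 183 against 48.7 and 16.7 CPM. Elane, Csf3r and Cxcr2 were named with their values known. The macrophage and monocyte list summed to 1468 and 1148 CPM in omental tumor and to 457 and 770 CPM in spleen, with 2 of 16 tested markers, Cd14 and Lyz2, higher and 0 lower. Of the 16 log2 fold changes 7 were positive, with a median of -0.43. Csf1r, Mrc1, Cd163, Mertk and Adgre1, markers of mature macrophages, were lowest in the mouse 3 omental tumor library, where Areg was highest. Cd68, Fcgr1, Itgam, Cd14 and Lyz2, of the same list, were highest in that library. Itgam stood at 60.2 and 120 CPM in omental tumor and at 19.3 and 14.0 CPM in spleen. Cd68 stood at 20.6 and 60.6 against 11.9 and 19.5 CPM, and Fcgr1 at 3.90 and 25.5 against 1.10 and 2.43 CPM. Except for Cd14 and Lyz2, these markers were named with their values known. Csf1r stood at 44.3 and 15.1 CPM in omental tumor and at 71.5 and 88.2 CPM in spleen (-1.74, adjusted p = 0.363). Without the mouse 3 omental tumor library neither Cd14 nor Lyz2 was called, with an adjusted p of 0.586 for Cd14 and 0.0950 for Lyz2. Without the mouse 2 spleen library these were 0.160 and 0.535, and without its mouse 3 counterpart Lyz2 had 0.0700. Its most abundant markers were the chemokine receptor gene Ccr2 (846 and 218 against 189 and 373 CPM) and the lysozyme gene Lyz2 (286 and 312 against 7.01 and 49.6 CPM). Mast cells and basophils are also known sources of amphiregulin, and their list summed to 78.5 and 408 CPM in omental tumor and to 34.7 and 9.19 CPM in spleen. Hdc, the histamine-making enzyme, accounted for 18.8 and 391 CPM of that in omental tumor and for 1.80 and 0.44 CPM in spleen. Its call was lost without the mouse 3 omental tumor library (log2 fold change 3.75, adjusted p = 0.226). Without Hdc the list summed to 59.8 and 16.7 CPM in omental tumor and to 32.9 and 8.75 CPM in spleen. The second most abundant marker of that list was Ms4a2, a chain of the IgE receptor, at 19.1 and 6.38 against 17.6 and 3.09 CPM. In the mouse 3 omental tumor library the mast cell protease genes Mcpt4, Tpsab1 and Tpsb2 were at 0, and Tpsb2 had at most 1 count in any library. In the same library Cma1 had 2 counts, Mcpt8 3, Fcer1a 5, Cpa3 9 and Kit 18, and the first 2 were at their highest CPM there. The neutrophil sum and the mast cell and basophil sum had the order of Areg over the libraries, the second not without Hdc. The part of such cells in the Areg level was not tested. Within mouse 2, where Areg was 34.9 times its spleen level, S100a9 and S100a8 stood lower in omental tumor than in spleen. The other tested markers of the neutrophil list stood higher there. They ran from 1.35 times the spleen level for Retnlg to 7.20 times for the matrix metalloprotease gene Mmp9. Lyz2 was 40.8 times and Cd14 10.1 times its spleen level.

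Of genes with a mean of at least 10 CPM, the 5 whose profiles over the 4 libraries lay closest to that of Areg were Il1b, Clec7a, Ccl6, Cxcl2 and Thbs1. Likeness was the Euclidean distance between centred log2(CPM + 1) profiles, which ran from 1.07 for Il1b to 1.35 for Thbs1 among 9124 genes. Il1b stood at 60.5 and 1279 CPM in omental tumor and at 3.00 and 1.40 CPM in spleen. Clec7a, which encodes a receptor for fungal glucans, stood at 50.0 and 375 CPM in omental tumor and at 2.70 and 2.06 CPM in spleen. The chemokine gene Ccl6 differed less between the omental tumor libraries, at 159 and 396 CPM, against 3.804 and 2.28 CPM in spleen. The libraries share depth and cell makeup in these comparisons, and 4 points give no test.

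Areg lies in a block of chromosome 5 that also holds Epgn, Ereg and Btc, of which Btc did not pass the threshold and Epgn and Ereg were too low to be tested. In the mm10 build with GENCODE M21 annotation, Epgn spans 91027464 to 91035215, Ereg 91074622 to 91093646 and Areg 91139599 to 91148432 on the plus strand. Btc spans 91357261 to 91402994 on the minus strand. The promoters of Areg, Epgn and Btc are shown because these genes share the block while their counts in omental tumor differ widely. RefSeq sequences (GRCm38.p6) were matched for 5 of the 7 members, with Ereg and Hbegf not matched. Each window holds 250 bases before and 50 after the start site, on the strand of the gene.
Areg, chr5:91139349-91139648, plus strand: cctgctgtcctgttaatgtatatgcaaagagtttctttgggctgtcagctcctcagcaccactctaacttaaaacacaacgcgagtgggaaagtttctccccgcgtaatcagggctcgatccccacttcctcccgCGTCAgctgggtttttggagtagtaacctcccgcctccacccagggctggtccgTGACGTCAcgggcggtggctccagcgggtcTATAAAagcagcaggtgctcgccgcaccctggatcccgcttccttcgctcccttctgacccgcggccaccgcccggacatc
Epgn, chr5:91027267-91027566, plus strand: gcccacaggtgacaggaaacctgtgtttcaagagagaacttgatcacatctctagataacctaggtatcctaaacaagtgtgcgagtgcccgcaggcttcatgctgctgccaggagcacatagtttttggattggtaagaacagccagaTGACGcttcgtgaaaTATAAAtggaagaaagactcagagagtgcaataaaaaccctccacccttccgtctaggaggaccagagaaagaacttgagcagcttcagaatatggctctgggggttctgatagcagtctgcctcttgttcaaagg
Btc, chr5:91402945-91403244, minus strand: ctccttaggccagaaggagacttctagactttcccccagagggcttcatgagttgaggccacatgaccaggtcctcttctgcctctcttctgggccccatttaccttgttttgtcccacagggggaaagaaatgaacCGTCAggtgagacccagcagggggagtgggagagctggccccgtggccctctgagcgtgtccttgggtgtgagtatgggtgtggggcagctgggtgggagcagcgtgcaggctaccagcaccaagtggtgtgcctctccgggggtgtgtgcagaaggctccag
Capitals mark 3 motifs searched on both strands. These were the cyclic AMP response element (CRE) TGACGTCA, its core TGACG, which lies within the CRE on each strand, and the TATA box TATAAA. The Areg window held the whole CRE with its first base at -61, a separate core at -115 and TATAAA at -31. The CRE was found in 1.79% of 32851 promoter windows of the same length, the core in 20.8% and TATAAA in 13.6%. The Epgn window held a core at -101 and TATAAA at -86, and the Btc window a core at -113. The AP-1 motif TGANTCA was in none of the 3 windows and in 7.81% of all. A match is a description of the letters and not a measured binding site.

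The neighbours of Areg in the block held few counts. Epgn had 1 and 2 counts in omental tumor and 1 and 0 counts in spleen, at or under the limit of 3 counts in every library. Ereg had 19 and 4 counts in omental tumor and 11 and 0 counts in spleen, or 2.85 and 1.06 against 1.10 and 0 CPM, where the 95% Poisson interval of the 0 reaches 0.27 CPM. Btc had 7 and 5 counts in omental tumor and 30 and 10 counts in spleen. Upstream of Epgn lay Mthfd2l, a mitochondrial folate enzyme gene, at 4.05 and 5.58 CPM in omental tumor and 4.40 and 1.03 CPM in spleen. Farther out, at -235.7 and -248.4 kb from the Areg start, Cxcl2 and Cxcl1, genes of neutrophil-attracting chemokines, were higher in omental tumor. Cxcl2 stood at 56.9 and 714 CPM in omental tumor and at 0.30 and 1.40 CPM in spleen (log2 fold change 8.45, adjusted p = 4.26e-11). Cxcl1 stood at 9.01 and 23.4 CPM in omental tumor and at 0.40 and 0.07 CPM in spleen (5.88, adjusted p = 0.00106). Without the mouse 3 omental tumor library the log2 fold changes were 5.48 for Cxcl2 (adjusted p = 0.000743) and 4.90 for Cxcl1 (0.179), and Cxcl1 also missed without the mouse 2 spleen library (0.0649). Over the other libraries left out in turn, Cxcl2 ran from 7.65 without the mouse 2 spleen library to 10.70 without that of mouse 3. On the far side of Btc, Parm1 stood at 7.06 and 1.59 CPM in omental tumor and 1.90 and 0.07 CPM in spleen, with an adjusted p of 0.553. These neighbours were chosen by position, within 150 kb of the block, with their values known.

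**Figure D2:**
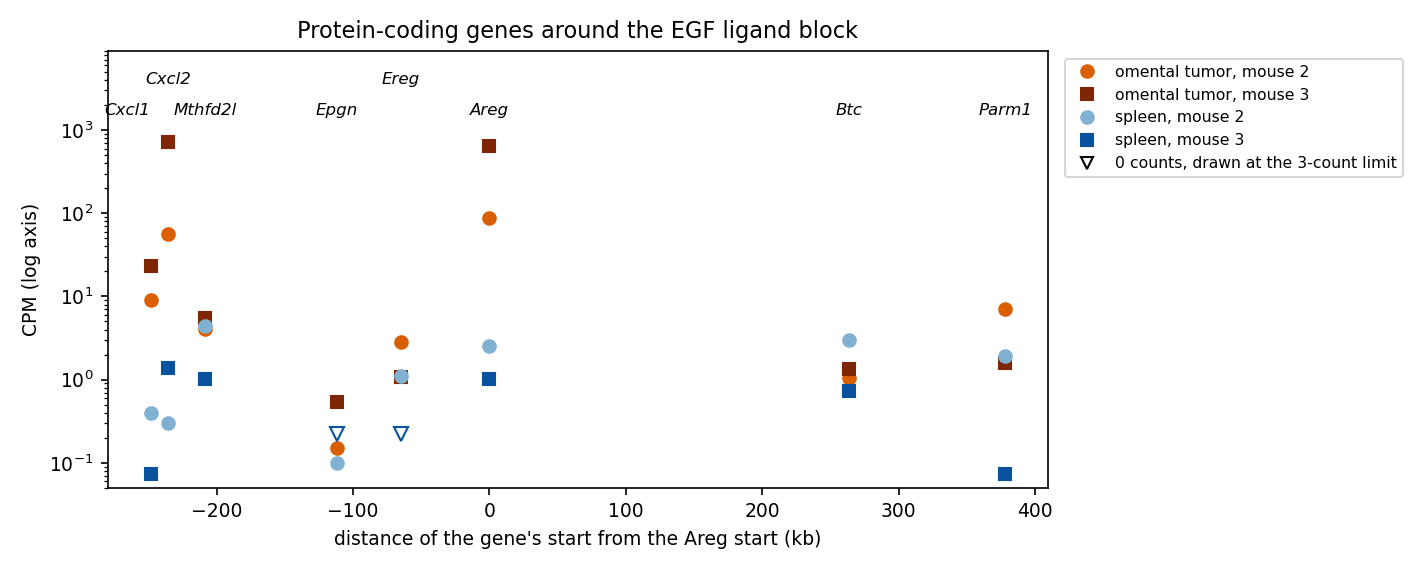
Levels in CPM (log axis) of the 8 protein-coding genes in and within 150 kb of the block, against the distance of each gene's start from the Areg start in kb. In omental tumor, points for Areg at 87.4 and 647 CPM and Cxcl2 at 56.9 and 714 CPM stand above those of Epgn, Ereg and Btc, which all lie under 3 CPM. Open triangles mark 0 counts, drawn at the level of 3 counts.

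Hbegf encodes a ligand of EGFR and ERBB4 that binds heparan sulfate, and lies on chromosome 18 (36504927 to 36515805, minus strand). It stood at 7.51 and 18.3 CPM in omental tumor and at 4.81 and 2.43 CPM in spleen, from 50 and 69 counts against 48 and 33 counts. Both omental tumor libraries were above both spleen libraries, as they were for 21.6% of all genes tested. The log2 fold change, 1.61 (SE 0.96), did not pass the threshold (adjusted p = 0.576). With the replicate block it was 1.501, with an unadjusted p of 0.0488 and an adjusted p of 0.320. Within mouse 2 the ratio of omental tumor to spleen was 1.56 (95% counting interval 1.03 to 2.37) and within mouse 3 it was 7.55 (4.92 to 11.8). Like Areg, Hbegf was highest in the mouse 3 omental tumor library, and the neutrophil sum of 1542 CPM stood in that library. The part of such cells in the Hbegf level was not tested. The closest profiles to Hbegf were those of Gatad1, Fam162a, Ranbp1, Prtg and Afg3l2, at distances of 0.133 to 0.205 over the 4 libraries.

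The strain name bears on Hbegf. The diphtheria toxin receptor, abbreviated DTR, is the membrane form of HB-EGF, and mice made to respond to the toxin commonly carry its human version. Going by the strain name, the regulatory elements of Foxp3 drive it, in the sorted cells of both tissues. The labels do not give the construct, and whether reads of such a transcript were counted under Hbegf was not tested. Foxp3 itself stood at 93.1 and 88.5 CPM in omental tumor and at 116 and 116 CPM in spleen, with a log2 fold change of -0.64 and an adjusted p of 0.772. The level of the construct's transcript cannot be read from these counts.

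The remaining ligands were near the limit of detection. Tgfa, which encodes the ligand first known from transformed cells (chromosome 6, 86195223 to 86275719), stood at 4.35 and 1.59 CPM in omental tumor and at 2.30 and 0.07 CPM in spleen. Its lowest value is a single count. The tissues overlapped, and the log2 fold change, 1.26 (SE 1.19), did not pass the threshold (adjusted p = 0.726). The ratio was 1.89 (1.06 to 3.42) in mouse 2 and 21.7 (2.63 to 997) in mouse 3. Btc, a ligand of EGFR and ERBB4, was the single tested member with a negative log2 fold change, -0.85 (SE 1.29, adjusted p = 0.823). It stood at 1.05 and 1.33 CPM in omental tumor and at 3.00 and 0.74 CPM in spleen. Its ratio was 0.35 (0.13 to 0.81) in mouse 2 and 1.81 (0.48 to 5.80) in mouse 3, the second with an interval that spans equality. Ereg had a ratio of 2.59 (1.17 to 6.03) in mouse 2. In mouse 3 it had 4 counts in omental tumor against 0 in spleen, which puts the lower 95% counting limit of the ratio at 2.38. Fitted without a filter on low counts, Ereg had a log2 fold change of 1.65 (adjusted p = 0.686). The closest profiles were those of Pde1c, A630089N07Rik, Slc5a12, Grk4 and Lrrc75b to Tgfa, of Fam207a, Ggnbp2, Loh12cr1, Slc25a37 and Ubr2 to Btc, and of BC030336, E330033B04Rik, Pcdh17, Thap6 and Fem1c to Ereg. Their distances ran from 0.0542 to 0.176.

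Egfr, the receptor of all 6 ligands (chromosome 11, 16752203 to 16918158), stood at 9.76 and 3.45 CPM in omental tumor and at 2.70 and 0.29 CPM in spleen. These are 65 and 13 counts in omental tumor and 27 and 4 counts in spleen. The tissues did not overlap in CPM, but the mouse 3 omental tumor library and the mouse 2 spleen library lay close together. The log2 fold change was 2.02 (SE 1.09, adjusted p = 0.529), and 2.27 with the replicate block (unadjusted p = 0.00600, adjusted p = 0.141). The ratio was 3.61 (2.27 to 5.88) in mouse 2 and 11.7 (3.63 to 49.4) in mouse 3. The closest profiles to Egfr were those of Pcdh10, Adam22, Gcsam, Frmd5 and Cd36, at distances of 0.119 to 0.253. At such low levels the 1 added in log2(CPM + 1) flattens a profile. The distances of Egfr, Hbegf, Tgfa, Btc and Ereg therefore cannot be set beside those of Areg.

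**Figure D3:**
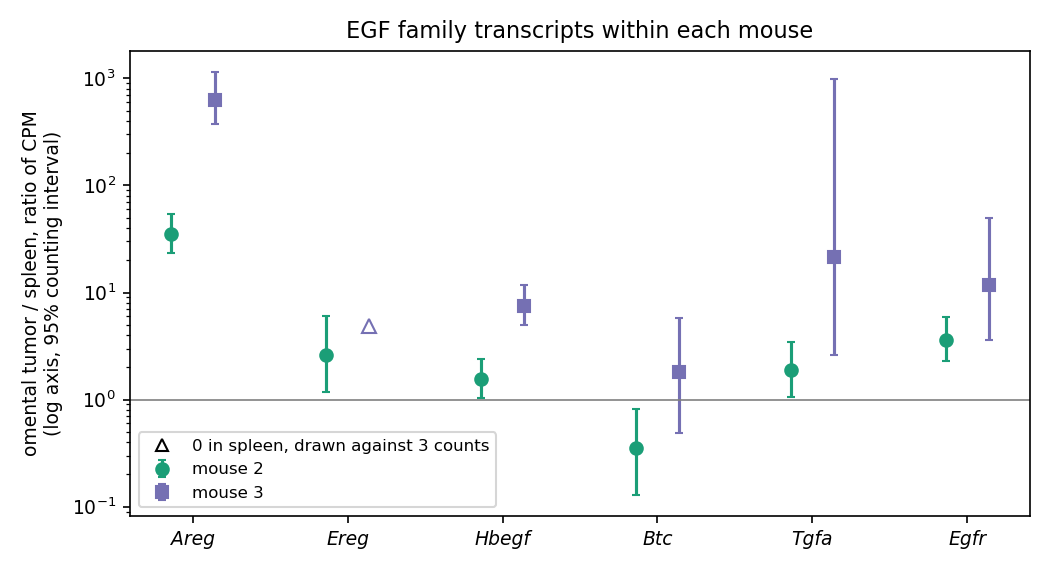
Ratio of omental tumor to spleen within each mouse, in CPM on a log axis, with 95% intervals that cover counting error only. Areg lies at 34.9 in mouse 2 and 628 in mouse 3, and Btc lies at 0.35 in mouse 2 and 1.81 in mouse 3. The open triangle for Ereg is drawn against a floor of 3 counts, and Epgn is not drawn.

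Reads outside annotated genes moved with Egfr, Tgfa and Ereg. For each count in genes there were 2.86 and 1.23 such reads in omental tumor and 1.78 and 0.54 in spleen. These ratios were thus higher in mouse 2 than in mouse 3 in each tissue, and higher in omental tumor than in spleen in each mouse. Egfr, Tgfa and Ereg had the same pattern, and Areg, Hbegf, Btc and Epgn did not. The pattern was also present in Egf, Nrg1, Nrg2, Nrg3 and Erbb4. It was present in 28.8% of all genes tested and in 53.1% of 7207 tested genes with a mean under 10 CPM. The part of such reads in the counts of Egfr, Tgfa and Ereg was not tested.

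**Figure D4:**
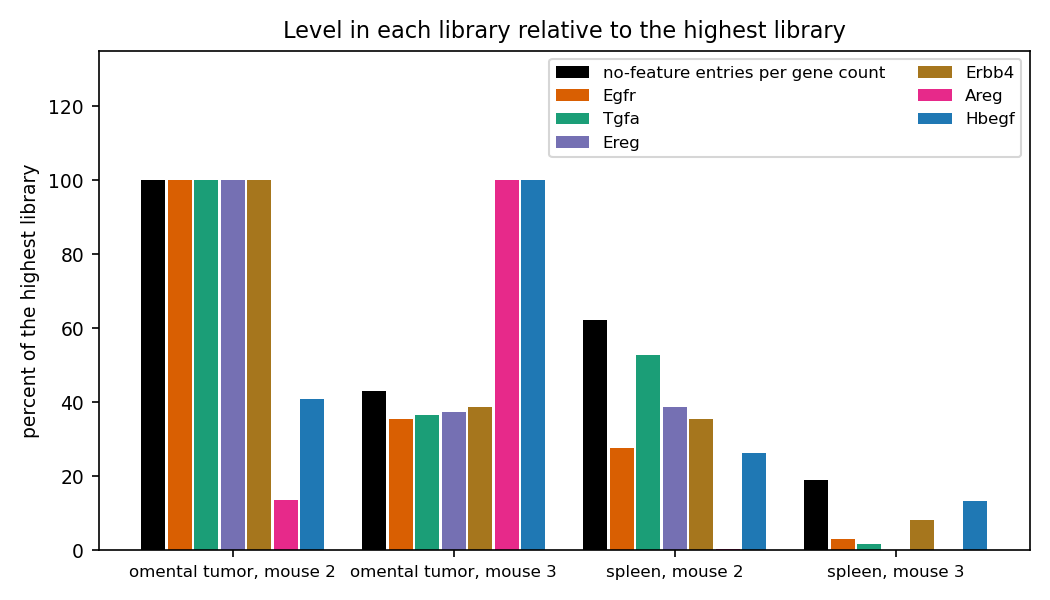
Level in each library as percent of the highest library, for reads outside genes per gene count and for 6 genes of the EGF family. Bars of Egfr, Tgfa, Ereg and Erbb4 are highest in the omental tumor of mouse 2, as is the ratio of reads outside genes at 2.86. Bars of Areg and Hbegf are highest in the omental tumor of mouse 3.

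Per kilobase of exon, Areg was the most abundant ligand in every library, and its share of the 6 ligands was larger in both omental tumor libraries than in both spleen libraries. Areg made up 95.7% and 99.1% of the summed ligand level per kilobase in omental tumor and 46.9% and 55.6% in spleen. The spleen shares rest on 25 and 14 counts of Areg. In spleen the order depends on the division by exon length. In CPM, Hbegf stood above Areg in both spleen libraries, at 4.81 and 2.43 against 2.50 and 1.03 CPM. Btc, at 3.00 CPM, also stood above Areg in the mouse 2 spleen library. The other 5 ligands together summed to 3.23 and 4.88 CPM per kilobase in omental tumor and to 2.34 and 0.68 in spleen. Hbegf was the second in order in every library, at 1.55 and 3.79 CPM per kilobase in omental tumor and 0.99 and 0.50 in spleen. The order of Egfr, Ereg, Tgfa, Btc and Epgn below them changed from library to library. Exon lengths come from GENCODE M21, which may not be the annotation behind the counts.

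Of the 5 members tested, 4 had positive log2 fold changes, and the median was 1.61. Over all genes tested 53.9% were positive, with a median of 0.13. The same 4 of the 5 tested members stood higher in omental tumor in both mice in CPM, as did 44.4% of all genes tested. Ereg and Epgn, which were not tested, also stood higher in both mice. Epgn did so on 1 count in each tissue of mouse 2 and on 2 against 0 counts in mouse 3. A member that passed the filter through its higher tissue had to differ, so these counts are given as a description.

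The other family ligands were low in all libraries, and 0 of the 4 tested were called by edgeR, DESeq2 or limma-voom, with 0 unadjusted p under 0.05. The neuregulins bind ERBB3 and ERBB4, while EGF binds EGFR. Egf stood at 15.2 and 3.19 CPM in omental tumor and at 5.81 and 1.40 CPM in spleen (log2 fold change 1.18, adjusted p = 0.699). Nrg1 stood at 4.05 and 1.86 against 0.80 and 0.44 CPM (2.03, adjusted p = 0.597). Nrg3 stood at 7.06 and 1.59 against 4.004 and 1.18 CPM (0.60, 0.850), and Nrg4 at 3.90 and 5.05 against 3.10 and 1.32 CPM (0.79, 0.800). Nrg2 was not tested, with 8 and 3 counts in omental tumor and 8 and 0 in spleen.

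Among the other receptors, 0 of 3 were called by edgeR, DESeq2 or limma-voom, and Erbb3 stood lower in both omental tumor libraries. Erbb3 encodes a receptor with little kinase activity that signals through its partners. It stood at 19.4 and 4.78 CPM in omental tumor and at 30.9 and 30.8 CPM in spleen, with a log2 fold change of -1.64 (SE 0.82). Its unadjusted p was 0.0448 and its adjusted p 0.475, and the tissues did not overlap. Erbb2, the shared partner without a ligand of its own, stood at 5.26 and 2.13 against 5.41 and 2.87 CPM (-0.36, adjusted p = 0.909). Erbb4 stood at 19.2 and 7.44 against 6.81 and 1.54 CPM (1.501, adjusted p = 0.602).

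Of 16 tested genes of ligand shedding and trafficking, 0 were called by edgeR, with 4 unadjusted p under 0.05, and 1, Frmd8, was called lower by both DESeq2 and limma-voom. In edgeR 10 had positive log2 fold changes, with a median of 0.23. Frmd8, a partner that steadies the iRhom and ADAM17 complex, stood at 148 and 29.0 CPM in omental tumor and at 441 and 510 CPM in spleen (log2 fold change -2.75, adjusted p = 0.0729). Timp3, an inhibitor of ADAM17, stood at 18.8 and 1.86 against 3.00 and 0.44 CPM (2.44, adjusted p = 0.354). The metalloprotease gene Adam9 stood at 87.1 and 15.1 against 14.4 and 10.1 CPM (1.78, 0.385), and the rhomboid protease gene Rhbdl2 at 9.31 and 5.58 against 2.80 and 0.07 CPM (2.27, 0.454). Adam17, chosen after its values were seen because it encodes the sheddase of amphiregulin, stood at 257 and 46.5 CPM in omental tumor and at 178 and 220 CPM in spleen (-0.73, adjusted p = 0.748).

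Partners of HB-EGF, such as tetraspanins and heparan sulfate proteoglycans, gave 0 calls among 10 genes in edgeR, DESeq2 or limma-voom, with 1 unadjusted p under 0.05 and a median of 0.32. That gene was Sdc1, the syndecan-1 gene, at 9.46 and 1.06 CPM in omental tumor and 1.20 and 0.51 CPM in spleen (2.43, adjusted p = 0.450). Itga3 and Sdc3 had log2 fold changes of 1.52 and -1.78, and the tetraspanin gene Cd82 of -1.09, with adjusted p from 0.612 to 0.696.

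Genes of the signalling chain from the receptor to RAS, MAP kinase and PI3 kinase gave 0 calls among 24 in edgeR, DESeq2 or limma-voom, with 4 unadjusted p under 0.05, evenly split in direction, and a median of 0.17. The adaptor gene Grb2 stood at 13.8 and 70.1 CPM in omental tumor and at 9.81 and 9.41 CPM in spleen (1.87, adjusted p = 0.358). The adaptor gene Shc1 stood at 107 and 22.0 against 165 and 201 CPM (-1.83, 0.337). Plcg1, the phospholipase gene, had a log2 fold change of -1.72 (0.405) and the adaptor gene Gab2 of 2.13 (0.462).

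Of 23 tested genes of receptor feedback and downregulation, 2 rose and 0 fell, against 1.16% and 0.263% of all genes tested. Positive log2 fold changes numbered 9, with a median of -0.14, against 53.9% and 0.13 over all genes. Both that rose are known to be induced by ERBB and MAP kinase signalling and to dampen it. Other feedback genes of the list went either way. Dusp6 stood at 16.4 and 19.7 CPM in omental tumor and at 37.6 and 36.3 CPM in spleen (-1.32, adjusted p = 0.579). Spry1 stood at 11.6 and 7.70 against 24.9 and 22.6 CPM (-1.58, 0.524), while Spry2 and Spry4 were higher in both omental tumor libraries. Dusp6 and the Spry genes were named with their values known. Errfi1, whose product Mig-6 binds and inhibits EGFR, stood at 26.3 and 95.6 CPM in omental tumor and at 6.91 and 1.32 CPM in spleen (log2 fold change 3.76, SE 0.86, adjusted p = 0.00222). Dusp4, a nuclear phosphatase of MAP kinases, stood at 56.3 and 106 CPM in omental tumor and at 14.9 and 3.16 CPM in spleen (3.02, SE 0.81, adjusted p = 0.0180). The related phosphatase gene Dusp5 stood at 5.26 and 35.3 against 2.90 and 2.13 CPM (2.77, adjusted p = 0.157), and the endocytic adaptor gene Eps15 at 212 and 39.0 against 275 and 325 CPM (-1.59, 0.470). Errfi1 missed the threshold without the mouse 3 omental tumor library (2.38, adjusted p = 0.654), the mouse 2 spleen library (5.04, 0.141) or that of mouse 3 (3.50, 0.311). Dusp4 missed it without the same libraries, in that order, at 2.34 (0.495), 4.19 (0.262) and 2.73 (0.646), and with the replicate block (3.20, adjusted p = 0.0565). Both were highest in the mouse 3 omental tumor library, where the neutrophil list summed to 1542 CPM. Whether such cells or ERBB signalling had a part in these levels was not tested.

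Of 24 tested genes for receptors, sensors and regulators linked to Areg induction, 4 rose and 0 fell, against 1.16% and 0.263% of all genes tested. Positive log2 fold changes numbered 17, with a median of 0.48, against 53.9% and 0.13 over all genes. Crem, a modulator of CRE-dependent transcription that cyclic AMP induces, was the most even of the 4 across the mice. It stood at 612 and 624 CPM in omental tumor and at 30.6 and 41.4 CPM in spleen (3.79, SE 0.89, adjusted p = 0.00296). Its omental tumor libraries differed far less than those of Areg. Crem missed the threshold without the mouse 2 spleen library (3.40, adjusted p = 0.475) or that of mouse 3 (4.51, 0.364). Nfil3, a bZIP regulator of effector lymphocytes, stood at 17.0 and 116 against 0.90 and 2.79 CPM (4.82, adjusted p = 4.18e-05). The other 2 are innate sensors typical of myeloid cells. Nlrp3, of the inflammasome, stood at 6.31 and 70.7 against 0.80 and 0 CPM (adjusted p = 3.46e-06), and Tlr2, which senses bacterial lipoproteins, at 24.6 and 209 against 7.31 and 15.3 CPM (3.07, adjusted p = 0.0121). Without the mouse 3 omental tumor library the adjusted p was 0.646 for Nfil3, 0.506 for Nlrp3 and 0.831 for Tlr2. Without the mouse 2 spleen library it was 0.287 for Nfil3 and 0.494 for Tlr2, and Tlr2 also missed without that of mouse 3 (0.136) and with the replicate block (0.139). The block added the call of Adora2b, an adenosine receptor that raises cyclic AMP, at 4.05 and 2.92 against 0.10 and 0 CPM (adjusted p = 0.00472, and 0.0930 without the block). Il1rl1, the gene of the interleukin-33 receptor ST2 that drives Areg in tissue Tregs, was chosen after its values were seen. It stood at 1263 and 215 CPM in omental tumor and at 174 and 199 CPM in spleen (1.65, adjusted p = 0.497). Il1rl1 was highest in the omental tumor of mouse 2 and Areg in that of mouse 3. The part of the receptor in the Areg level was not tested.

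**Figure D5:**
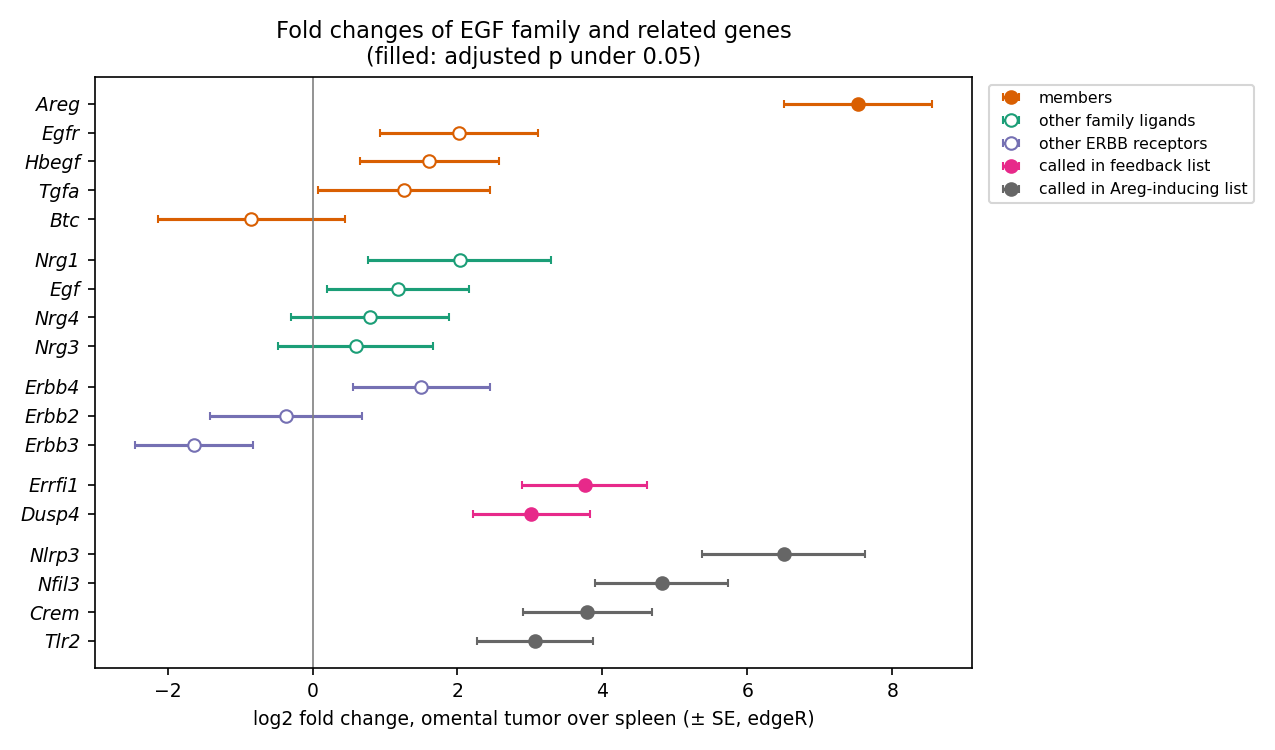
Log2 fold change of omental tumor over spleen with its SE from edgeR, for the 5 tested members, the other tested family genes and the called genes of the feedback and Areg-inducing lists. Filled points have an adjusted p under 0.05. Areg at 7.53 is the single filled member, and the other 4 lie between -0.85 and 2.02.

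Of 28 tested genes for other tissue repair factors, 4 rose and 0 fell, against 1.16% and 0.263% of all genes tested. Positive log2 fold changes numbered 27, with a median of 1.38, against 53.9% and 0.13 over all genes. This list, like the others, was chosen with earlier results of these data known. Retnla, a secreted protein of alternatively activated macrophages, stood at 23.4 and 39.0 CPM in omental tumor and at 1.10 and 0.37 CPM in spleen (5.21, adjusted p = 0.000216). Arg1, the arginase of the same cells, stood at 46.4 and 16.7 against 2.00 and 2.21 CPM (3.59, adjusted p = 0.0139). Spp1, the osteopontin gene, stood at 10.7 and 864 against 10.0 and 3.16 CPM (5.92, adjusted p = 4.21e-07), and Thbs1, a matrix glycoprotein gene, at 32.7 and 843 against 1.40 and 1.10 CPM (8.23, adjusted p = 8.24e-11). Without the mouse 3 omental tumor library the log2 fold change of Spp1 was 0.37 (adjusted p = 0.903) and that of Thbs1 4.28 (0.0390), and with the replicate block Spp1 missed the threshold (3.82, adjusted p = 0.247). The block added the call of the cytokine gene Il6, at 10.4 and 16.7 against 2.70 and 0.44 CPM (3.17, adjusted p = 0.0258, and 0.175 without the block). Spp1 also missed without the mouse 3 spleen library (0.0924), and Retnla without that of mouse 2 (0.0792). Arg1 missed without the mouse 2 omental tumor library (2.74, 0.187), the mouse 2 spleen library (0.475) or that of mouse 3 (0.140). The macrophage list summed to 1468 and 1148 CPM in omental tumor and to 457 and 770 CPM in spleen, mostly Ccr2 and Lyz2, with a negative median log2 fold change of -0.43. Its part in these genes was not tested.

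For the called genes of these lists and for Cxcl1 and Cxcl2, as for Areg, 0 calls were left without a filter on low counts or with a minimum count of 50. With library gene totals alone, Crem, Thbs1, Cxcl2 and Areg kept their calls, while the others had adjusted p from 0.0547 for Retnla to 0.232 for Tlr2. DESeq2 did not call Nlrp3 (adjusted p = 0.137) or Spp1 (0.0841) and also called Il6 higher, and limma-voom did not call Cxcl1 (0.116), Nlrp3 (0.0698) or Tlr2 (0.0834). The called genes of the neutrophil, macrophage and mast cell lists were likewise lost without a filter or with a minimum count of 50. With library gene totals alone Hdc kept its call (adjusted p = 0.0400), and the others had adjusted p from 0.0547 for Cd14 to 0.413 for S100a8. Lyz2 was also lost with RLE factors (0.0541).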

How the data were processed

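RNA was measured in 4 libraries of sorted Tregs, 2 from omental tumors and 2 from spleens. Per the labels' protocols, cDNA was made with the SMART-seq v4 kit and libraries with Nextera XT, which do not mark strand. The deposited values are raw read counts per gene symbol. The submitters' processing notes name HTSeq, SAMtools, TopHat2 and Trim Galore and the build mm10. The sources used here give no version, annotation or strand option, so reads of overlapping or antisense genes cannot be told apart.

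HTSeq summary entries that name no gene entered neither library totals nor tests. Genes received 17.1% and 22.2% of all entries in omental tumor, against 24.9% and 46.0% in spleen. Levels are CPM of the library gene total. The tissues were compared over all genes in R 4.3.3 with edgeR 4.0.16 (TMM scaling, with factors between 0.806 and 1.15, filterByExpr at a minimum count of 10, glmQLFit and glmQLFTest), two-sided, with Benjamini-Hochberg adjustment over 16322 genes at 0.05. The SE is the absolute log2 fold change over the square root of F. The prior degrees of freedom were infinite, so SE and p do not reflect how far the mice differed in that gene. The fit was tested on simulated data. Counting intervals are 95% and exact (Poisson for levels, Clopper-Pearson for ratios), and the floor is 3 counts.

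Mouse numbers mark the same animal in both tissues, per the labels. They were taken to pair the samples in the within-mouse ratios and the replicate block, while the reported fit held tissue alone. The correlation across genes of same-mouse deviations was 0.234, necessarily equal for the 2 mice. The members and lists were chosen with earlier results of these data known. Genes named were all members, the other family genes, 4 sort markers, the called genes and the 4 smallest p in each of the remaining pathway lists, and the 2 most abundant markers of the cell lists described, with exceptions stated. Marker lists also covered dendritic cells, eosinophils, ILC2 and NK cells, B cells, fibroblasts, mesothelium and epithelium, endothelium and platelets. Another marker list is not reported here. Alternatives were RLE and upper-quartile factors, library gene totals alone, other filters, DESeq2 1.42.0, voom in limma 3.58.1, the legacy glmQLFit, the replicate block and leaving out each library. When a library was left out, the remaining library of that tissue took its spread from the other tissue.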

Additional observations from a re-analysis of the deposited data

How the results depend on the processing

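The 5 tested members kept their direction in all 61 refitted values, counted over members and alternatives, and 57 of the 59 with an adjusted p stayed on the same side of the threshold. The exceptions were Areg without a filter on low counts (log2 fold change 7.39, adjusted p = 0.204) and at a minimum count of 50 (8.14, adjusted p = 0.0860), where 0 of the 7 members and 0 genes in all were called, against 233 genes. Prior degrees of freedom were 9.72 and 7.18 there, and infinite in the reported fit. Genes called numbered 28 with library gene totals alone and 370 with DESeq2. Leaving out each library in turn gave 60 genes called without the mouse 2 spleen library, 77 without the mouse 3 omental tumor library, 97 without the mouse 3 spleen library and 273 without the mouse 2 omental tumor library, with 1 of the 7 members called each time. Over those 4 fits the log2 fold change ran from 5.27 to 8.36 for Areg, from 0.68 to 2.17 for Hbegf, from 0.39 to 4.60 for Tgfa and from 1.14 to 3.91 for Egfr. For Btc it ran from -1.19 to -0.59 over the 3 fits in which it passed the filter. With the replicate block 263 genes and 1 of the 7 members were called, and the block changed no call of a member. Ereg and Epgn gave a value only without a filter, 1.65 and 2.06. DESeq2 gave no adjusted p for Btc and Tgfa. Btc and Tgfa rest on 1 to 30 counts per library, which limits their precision.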

Other observations

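Markers of other cells are given here as values, and their part in the member counts was not tested. Calls here are edgeR's, and 0 calls came with 0 to 3 unadjusted p under 0.05 per list. Summed over each list, markers of innate lymphoid and natural killer cells stood at 1609 and 2390 CPM in omental tumor, against 297 and 411 CPM in spleen, with 0 of 8 called, though DESeq2 and limma-voom each called Id2. Id2 and Rora led that list, with Id2 at 694 and 1960 against 108 and 215 CPM and Rora at 864 and 348 against 126 and 130 CPM, and both are also known from tissue Tregs. Dendritic cell markers, led by Ccr9 and Xcr1, summed to 179 and 85.8 CPM in omental tumor, against 64.9 and 29.4 CPM in spleen, with 0 of 8 called. Eosinophil markers, led by Ccr3 and Il5ra, summed to 147 and 94.8 CPM in omental tumor, against 43.9 and 46.3 CPM in spleen, with 0 of 3 called.

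The summed markers of fibroblasts and of mesothelial and epithelial cells were highest in the omental tumor of mouse 2. So were those of macrophages and monocytes, dendritic cells, eosinophils, B and plasma cells, and platelets. Egfr, Tgfa and Ereg were also highest in that library. Fibroblast markers summed to 227 and 82.1 CPM in omental tumor, against 56.7 and 63.9 CPM in spleen. Of 6 tested, Col3a1, a collagen gene, was higher, at 104 and 2.13 against 2.70 and 1.47 CPM, but its log2 fold change was -0.15 without the mouse 2 omental tumor library (adjusted p = 0.994). Without either spleen library, Col3a1 had an adjusted p of 0.209 for mouse 2 and 0.128 for mouse 3, and with the replicate block 0.176. The most abundant gene of that list was Thy1, which T cells also express. Mesothelial and epithelial markers summed to 113 and 66.4 CPM in omental tumor, against 20.2 and 4.19 CPM in spleen. Of 5 tested, the uroplakin gene Upk1b was higher, at 69.2 and 20.5 against 5.91 and 1.18 CPM. Upk1b missed the threshold without the mouse 2 omental tumor library (adjusted p = 0.213), the mouse 2 spleen library (0.201) or its mouse 3 counterpart (0.518). Epcam stood at 2.70 and 36.7 against 3.70 and 0.81 CPM. Endothelial markers, led by Pecam1 and Vwf, summed to 147 and 78.9 CPM in omental tumor, against 233 and 208 CPM in spleen. Most of each sum was Pecam1, at 91.6 and 32.7 against 212 and 205 CPM, except in the mouse 3 omental tumor library. Of the 6 log2 fold changes 5 were positive, with a median of 1.67. In edgeR 0 of 6 were called, though DESeq2 and the fit with the replicate block (adjusted p = 0.0398) called Vwf. B cell and plasma cell markers summed to 624 and 30.8 against 202 and 190 CPM, mostly Jchain and then Cd79b, with 0 of 5 called. Platelet markers, led by Pf4 and Itga2b, summed to 7.66 and 6.64 CPM in omental tumor, against 3.00 and 1.25 CPM in spleen, with 0 of 2 called.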
